A study of Homo sapiens with 4 samples.

Results

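WDR74 is 1 of 18276 genes in the deposited tables of an SF3B6 immunoprecipitation study, and it was found by its symbol in the read count table and in the FPKM table (ENSG00000133316.16). It was chosen by its counts per library and by its ratio between immunoprecipitated RNA and input, so that ratio is described here and is not tested. The study set RNA recovered with an antibody against SF3B6 from MDA-MB-231 cells (IP, 2 libraries) against input RNA (input, 2 libraries). MDA-MB-231 is an established human line of triple-negative breast cancer. Per the labels, all cells were irradiated at 400 mJ/cm2, lysed and treated with micrococcal nuclease, and 5 ug of antibody went into the recovery. The cell line entries differ in their last digit between samples, while every title gives MDA-MB-231. A control IgG antibody is named in the protocols, but input was the reference here, so RNA that sticks to beads or antibody was not separated from RNA held by SF3B6.

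WDR74 encodes a nucleolar WD-repeat protein that acts in the maturation of the large ribosomal subunit, where it works with the ATPase NVL and the RNA helicase MTR4; its yeast counterpart is Nsa1. SF3B6, also called p14, belongs to SF3b, the complex with which the U2 small nuclear ribonucleoprotein grips the branch point of an intron. U2 RNA is transcribed from a tandem array on chromosome 17 and from RNU2-2, a single gene on chromosome 11.

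In the RefSeq annotation of GRCh38.p14, the span of WDR74 is chr11:62832905-62841809 on the minus strand, 8905 bases long. RNU2-2 lies inside it, at chr11:62841619-62841809. Its 191 bases make up 2.15% of the WDR74 span. Both genes end on the same base of the higher coordinate, 62841809, which is the 5′ end of WDR74. The RefSeq promoter table places a pair of further WDR74 starts much deeper in the span, at 62839659 and 62839590. They are 69 bases apart, and they lie 2150 and 2219 bases from that 5′ end. From the inner edge of RNU2-2 they are 1960 and 2029 bases away. WDR74 transcripts from these inner starts therefore hold no RNU2-2 bases, while a transcript that begins at the outer end of the span begins with them. The lncRNA gene STX5-DT (chr11:62832234-62834043) overlaps the other end. RNU2-2 was looked up by its names and has no count of its own here, and the tables give 1 number per gene with no position, so WDR74 counts cannot be divided between the inner transcripts and the RNU2-2 stretch. No source used here says whether reads were counted by strand.

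The 250 bases before the outermost of the inner starts are shown as the sequence next to the inner starts, which lies within the WDR74 span and does not reach RNU2-2. They are given 5′ to 3′ on the minus strand (RefSeq, GRCh38.p14, chr11:62839660-62839909), with a match to the letters CGGAAG, the core recognised by ETS factors, in capitals.
WDR74 upstream: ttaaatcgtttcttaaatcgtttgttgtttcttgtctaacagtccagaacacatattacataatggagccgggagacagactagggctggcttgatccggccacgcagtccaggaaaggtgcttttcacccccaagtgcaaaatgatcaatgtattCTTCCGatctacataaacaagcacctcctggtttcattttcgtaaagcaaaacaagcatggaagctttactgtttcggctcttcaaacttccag
The match is on the opposite strand and reads CTTCCG, from 94 to 89 bases before the start. CGGAAG or its reverse complement was present in 16.5% of the 35116 RefSeq promoter windows cut to the same 250 bases. The octamer ATGCAAAT, which is part of the distal element of snRNA promoters, was searched on both strands too and was not among these letters; 1.63% of windows held it. TATAAA was also not among them, and 10.7% of windows held it.

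WDR74 took a larger share of the counts in both IP libraries than in both inputs. It had 419 and 166 counts in SF3B6 IP 1 and 2, against 324 and 448 counts in input 1 and 2. The libraries held 30431 to 55492 counts in genes in IP and 317190 to 519836 in input, so the shares were 0.755% (95% Wilson interval 0.686 to 0.831) and 0.545% (0.469 to 0.635) in IP, against 0.102% (0.0916 to 0.114) and 0.0862% (0.0786 to 0.0945) in input. The groups did not overlap, which held for both IP libraries above both inputs in 14.7% of the 3668 tested genes; the gene was chosen for this contrast, so nothing is read from it. In CPM, counts per 1000000 counts in genes, WDR74 averaged 6503 ± 1482 in IP and 942 ± 113 in input (SD, n = 2 libraries each). All such intervals cover counting error only, since no molecular identifiers were used to separate molecules from copies.

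**Figure D1:**
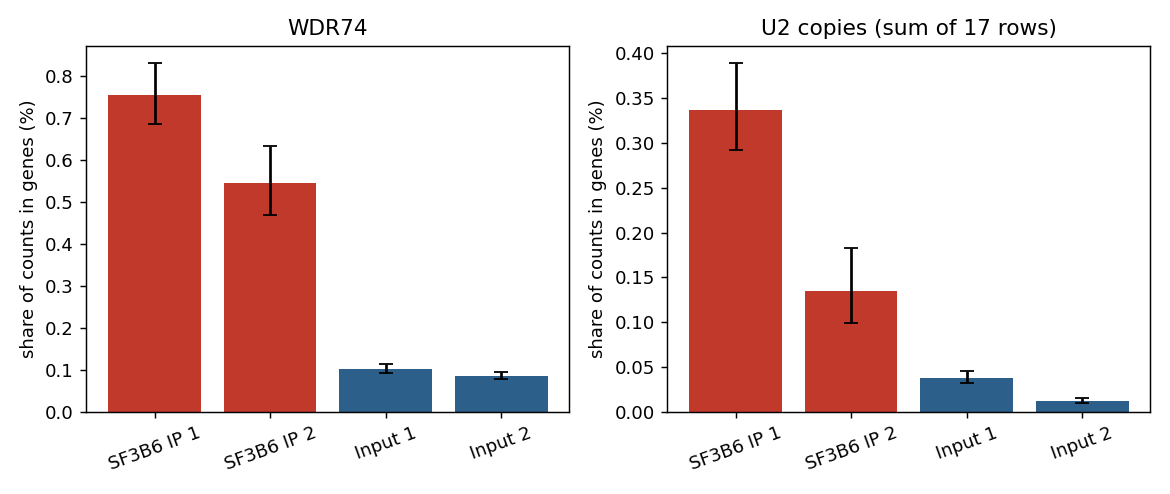
Share of all counts in genes (%) for WDR74 (left) and for the summed 17 U2 rows (right) in SF3B6 IP 1 and 2 (red) and input 1 and 2 (blue), with 95% Wilson intervals. WDR74 stood at 0.755% and 0.545% in IP, against 0.102% and 0.0862% in input.

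The size of the difference depended on which libraries were paired. The ratio of shares ran from 5.34 (exact interval 4.40 to 6.46) for SF3B6 IP 2 over input 1 to 8.76 (7.65 to 10.0) for SF3B6 IP 1 over input 2. Pooled over both libraries of each group it was 7.38 (6.62 to 8.23). The fit across all genes gave a log2 fold change, IP minus input, of 3.02 ± 0.21 (SE, edgeR with TMM scaling), with the median of the tested genes at -0.06. The IP libraries also differed from each other: the share was 1.38 times as high in SF3B6 IP 1 as in SF3B6 IP 2 (1.15 to 1.67). Input 1 stood at 1.19 times input 2 (1.02 to 1.37). Each IP library was less deep than either input, so recovery and depth cannot be told apart; within each group the deeper library had the larger share in IP and the smaller share in input.

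Protein-coding genes held 70.8% and 59.9% of the counts in IP, against 78.1% and 82.9% in input, so a share among them alone was computed too. Among counts in protein-coding genes, WDR74 held 1.07% and 0.911% in IP, against 0.131% and 0.104% in input. Among the 3483 protein-coding genes tested, NOS2, the inducible nitric oxide synthase, had a higher fold change on few counts, with 23 and 3 in IP against 0 and 3 in input. Next below WDR74 came FLG, the skin barrier protein filaggrin, with 36 and 0 counts in IP against 18 and 34 in input.

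On the authors' FPKM scale, which scales counts per gene length and per library total, the WDR74 row was among the highest protein-coding rows of the IP. It stood at 130.2 and 77.98 FPKM in IP, against 35.96 and 41.42 FPKM in input. The mean was 104 ± 36.9 FPKM in IP and 38.7 ± 3.86 FPKM in input (SD, n = 2 each). By FPKM it ranked 1 and 2 among 13477 protein-coding genes in SF3B6 IP 1 and 2, and 45 and 64 in input 1 and 2. The gene next to it in both IP libraries was IGFBP4, a secreted binding protein of insulin-like growth factors, which was above it in SF3B6 IP 2 and ranked 1 in both inputs. IGFBP4 had 109.5 and 89.58 FPKM in IP, against 289.0 and 430.1 FPKM in input, so the order of the pair was the same in SF3B6 IP 2 as in both inputs. The FPKM ratio of IP over input lay between 1.88 and 3.62 over the 4 library pairs, smaller than the ratios of shares. The totals behind the FPKM values, recovered from small single-exon genes, came to 757739 and 501217 reads in IP and 2121304 and 2546668 reads in input. They exceed the counts in genes by a larger factor in IP, and no source used here says what they hold. With these totals, counts and FPKM implied the same gene length for WDR74 in every library, 4247 bases, which is shorter than its RefSeq span. Whether this length includes RNU2-2 is not given.

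WDR74 stood above the other genes of ribosome assembly and of its name family in every library. By FPKM it ranked 1 of 54 large ribosomal subunit assembly genes and 1 of 49 genes whose symbol is WDR with a number, in both IP libraries and in both inputs. The next assembly gene was BOP1, of the PeBoW complex, at 7.56 FPKM in SF3B6 IP 1, and EIF6, which keeps the subunits apart, at 3.66 FPKM in SF3B6 IP 2. In the inputs the next were EIF6 at 8.64 FPKM in input 1 and BOP1 at 10.53 FPKM in input 2. Among WDR-named genes the next were WDR90, a centriolar protein, at 2.88 FPKM in SF3B6 IP 1, and WDR6, of a tRNA methyltransferase, at 2.63 FPKM in SF3B6 IP 2, 8.62 FPKM in input 1 and 10.44 FPKM in input 2. The high level of the WDR74 row was therefore present in input as well as in IP. The median over the 53 other assembly genes was 0.28 and 0.00 FPKM in IP, against 0.87 and 0.95 FPKM in input. The median over the 48 other WDR-named genes was 0.15 and 0.00 FPKM in IP, against 0.44 and 0.52 FPKM in input.

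**Figure D2:**
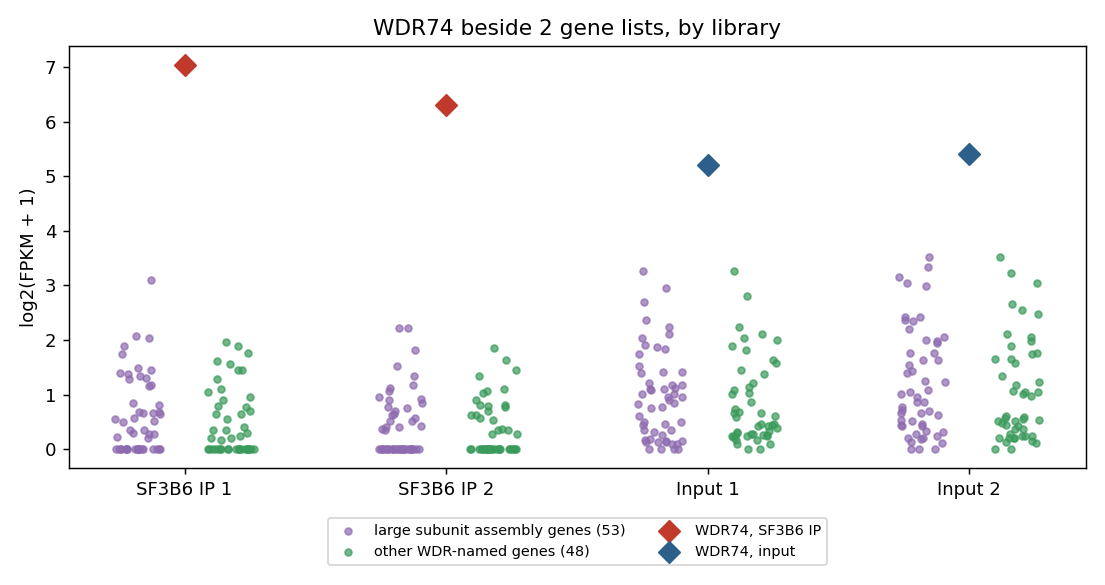
Level as log2(FPKM + 1) in SF3B6 IP 1 and 2 and input 1 and 2. Diamonds are WDR74 (7.04 and 6.30 in IP, 5.21 and 5.41 in input), purple points the 53 other large subunit assembly genes and green points the 48 other WDR-named genes; WDR74 lies above all of them in each library.

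None of the other large subunit assembly genes was called higher in IP, except BOP1 when at least 50 counts in 2 libraries were required (edgeR adjusted p = 0.0117). Of 53 with a row, 19 passed the filter on low counts, and 0 were higher and 0 lower (edgeR, adjusted p under 0.05), where 2.70% of all tested genes were called higher and 1.36% lower. At an unadjusted p under 0.05, 3 were higher, BOP1, NOP53 and LAS1L, against 7.93% of all tested genes. LAS1L passed the filter through the IP libraries alone, at 72.1 and 98.6 CPM in IP against 34.7 and 36.6 CPM in input. Its direction was thus largely set by the filter. DESeq2 called 0 of the 8 that had an adjusted p. The median log2 fold change of the 19 was 0.30, against -0.06 over all tested genes, with a range from -0.43 to 1.39. Of the 19, 7 had both IP libraries above both inputs, where 14.7% of all tested genes did. Some of the 7, LAS1L, DDX21 and RRP1 among them, passed the filter on low counts through the IP libraries alone. The filter thus largely set their order, and nothing is read from the 7. Whether the list as a whole was shifted was not tested. BOP1 had 22 and 7 counts in IP against 55 and 103 in input, with a log2 fold change of 1.05 ± 0.32 (edgeR adjusted p = 0.0553). LAS1L, an endonuclease of the internal spacer, stood at 1.39 ± 0.68 (adjusted p = 0.311) with 4 and 3 counts in IP against 11 and 19 in input. DDX21, a nucleolar helicase, stood at 1.09 (0.530), NOC2L at 0.37 (0.660) and DDX54 at 0.02 (0.991). URB1 at -0.43 (0.798) and WDR18 at -0.40 (0.880) were the lowest of the list. The partners of WDR74 had few reads: NVL had 0 and 0 counts in IP against 10 and 12 in input, and MTREX, which encodes MTR4, had 0 and 0 in IP against 1 and 3 in input. A count of 0 allows up to 3 counts, which is 54.1 and 98.6 CPM in the IP libraries, so recovery of these 2 transcripts was not measurable at this depth.

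The other WDR-named genes had fold changes on both sides of 0. Of 48 with a row, 14 were tested, and 0 were called in either direction, also at an unadjusted p under 0.05. Over all tested genes 2.70% were called higher and 1.36% lower, and 7.93% and 7.72% at the unadjusted p, so 0 of 14 is near the share over all genes. DESeq2 called 0 of the 7 with an adjusted p. Their median log2 fold change was 0.00, from -0.59 to 0.99. WDR1, an actin disassembly factor and the member with the most counts, had 16 and 6 in IP against 100 and 168 in input (log2 fold change -0.11, edgeR adjusted p = 0.931). WDR6 was at -0.59 (0.477), WDR13 at -0.58 (0.847), WDR62, a spindle pole protein, at 0.42 (0.564), WDR90 at 0.67 (0.322) and WDR27 at 0.99 (0.381). Summed over the 48 genes, the ratio of IP to input shares was 0.914 (0.784 to 1.06), against 7.38 for WDR74.

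Other protein-coding genes that contain an snRNA gene had low counts in IP. RefSeq lists 156 snRNA genes, and 38 protein-coding genes besides WDR74 overlap at least 1 of them; 26 of these have a row and 10 were tested. The strand of the snRNA genes is not in the tables used, so same-strand and opposite-strand hosts were not told apart. Most of the snRNA genes in these hosts carry only a LOC number in RefSeq. Of the 10, 0 were higher in IP and 1 was lower, where 2.70% and 1.36% of all tested genes were called, and 0 had both IP libraries above both inputs, where 14.7% of all did. With 10 genes, 0 higher is near the share over all genes. At an unadjusted p under 0.05 the numbers were also 0 and 1, and DESeq2 called 0 of 3 with an adjusted p. The median log2 fold change of the 10 was -0.26, from -0.85 to 0.45. GALNT2, which starts O-linked glycans, was the lower one, with 22 and 10 counts in IP against 238 and 418 in input (-0.85 ± 0.25, edgeR adjusted p = 0.0453). That call was lost in 7 of the alternatives tried, among them each fit without 1 library (adjusted p from 0.0548 to 0.338). PPP2R5E, a phosphatase subunit, was at 0.45 (0.821), RANBP9 at 0.11 (0.969), ATXN2 at 0.10 (0.969) and CLASP1 at 0.01 (0.996). ZNF623 was at -0.25 (0.938), PRRC2C at -0.27 (0.891), JADE2 at -0.42 (0.688), XPO5, the exporter of microRNA precursors, at -0.45 (0.864), and CDK12 at -0.78 (0.662). Pooled over the 26 hosts there were 104 counts in IP and 1609 in input, a ratio of shares of 0.630 (0.511 to 0.768). Over all protein-coding genes other than WDR74 the ratio was 0.818 (0.811 to 0.825). GALNT2 alone held 32 of the 104 IP counts and 656 of the 1609 input counts. The pooled ratio thus leans on 1 gene, and nothing is read from it for hosts as a group.

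**Figure D3:**
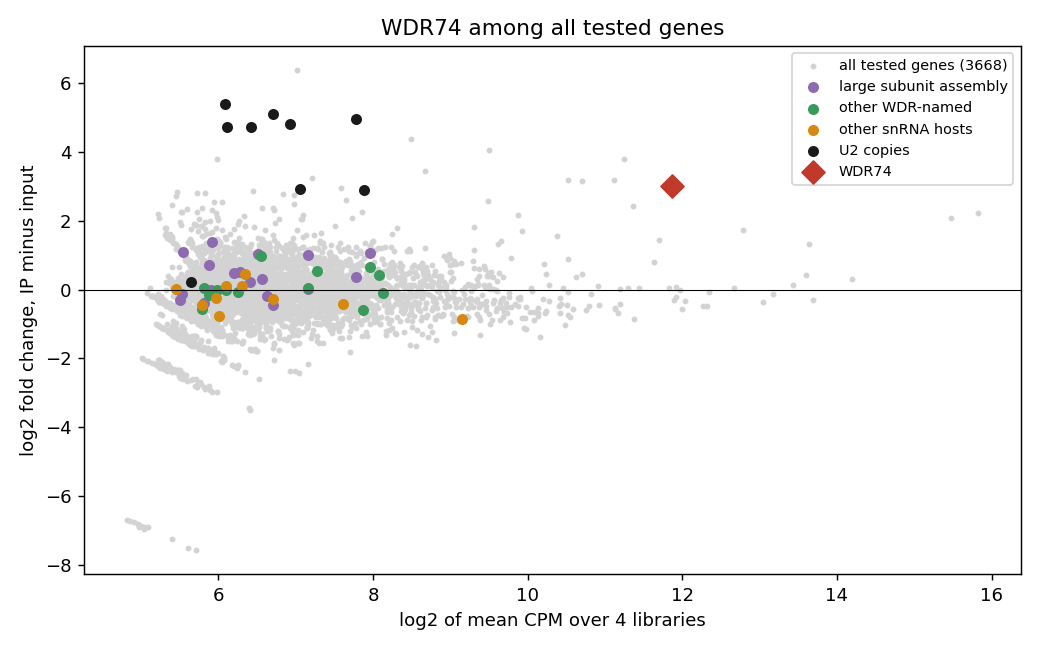
Log2 fold change, IP minus input, against the log2 of the mean CPM over the 4 libraries for the 3668 tested genes, with WDR74 (red diamond, 3.02), U2 copies (black), other snRNA hosts (orange), assembly genes (purple, WDR18 among them) and other WDR-named genes (green). The tested hosts lie between -0.85 and 0.45.

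The arrangement of host and snRNA differs among these genes. In WDR74 the snRNA gene is flush with the end of the host, 0 bases away, and the snRNA has no count of its own here. RNU4-2, a U4 gene, lies across the lower-coordinate end of SIRT4, a mitochondrial sirtuin. There the snRNA has a row of its own, with 90 and 67 counts in IP against 273 and 324 in input, while SIRT4 had 0 and 0 in IP against 1 and 3 in input. RNU4ATAC, the U4 RNA of the minor spliceosome, sits deep inside CLASP1. It had 15 and 6 counts in IP against 59 and 85 in input, and CLASP1, a microtubule-binding protein, had 4 and 0 in IP against 13 and 32 in input. Hosts whose snRNA gene has no count of its own here had low counts too: C12orf57, which contains RNU7-1, the snRNA of histone messenger processing, had 1 and 0 in IP against 6 and 10 in input. Over the 24 such hosts other than WDR74, the summed IP counts ran from 0 to 32, against 585 for WDR74. Apart from RNU7-1, the snRNA genes in these 24 hosts carry only LOC numbers in RefSeq. These hosts may therefore not be comparable with WDR74, and nothing is read from the contrast.

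The neighbours of WDR74 on chromosome 11 had few IP counts. The 10 nearest genes with a row, 5 on each side, held 0 to 29 counts in any IP library and 0 to 176 in any input, and 3 of them had 0 in both IP libraries. Pooled, they came to 54 and 32 counts in IP against 303 and 428 in input, a ratio of shares of 1.15 (0.906 to 1.43). SNHG1 alone held 29 and 24 of these counts in IP and 117 and 176 in input, so the pooled ratio leans on that gene. STX5, a syntaxin of the Golgi (chr11:62806860-62832051), had 2 and 1 counts in IP against 19 and 16 in input, with a ratio of 0.835 (0.164 to 2.65). NXF1, the messenger RNA export receptor, had 6 and 2 counts in IP against 18 and 28 in input (log2 fold change 0.97 ± 0.61, edgeR adjusted p = 0.459). SLC3A2, the heavy chain of amino acid transporters, had 12 and 2 in IP against 97 and 149 in input (-0.64 ± 0.38, 0.423), and TMEM179B 1 and 2 in IP against 19 and 17 in input (-0.10, 0.977). TAF6L had 3 and 1 in IP against 15 and 25 in input and was not tested. TMEM223, PLAAT5, LGALS12 and PLAAT4 were also not tested, with at most 1 count in an IP library. PLAAT5, LGALS12 and PLAAT4 lie far from WDR74, between chr11:63461404 and chr11:63546458. They had 1, 10 and 16 counts over both inputs, so they say little about the surroundings of WDR74.

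SNHG1, the next gene beyond the 5′ end of WDR74 and a host of box C/D snoRNAs (chr11:62851978-62855885), was the 1 neighbour called. It had 29 and 24 counts in IP against 117 and 176 in input, with a log2 fold change of 1.03 ± 0.24 (edgeR adjusted p = 0.00971). It did not pass with library totals (0.0556), with no filter (0.581, at 0.56 on the log2 scale), with DESeq2 (0.189), or without SF3B6 IP 2 (0.283) or input 2 (0.169), and it was at -0.54 with the totals recovered from FPKM.

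**Figure D4:**
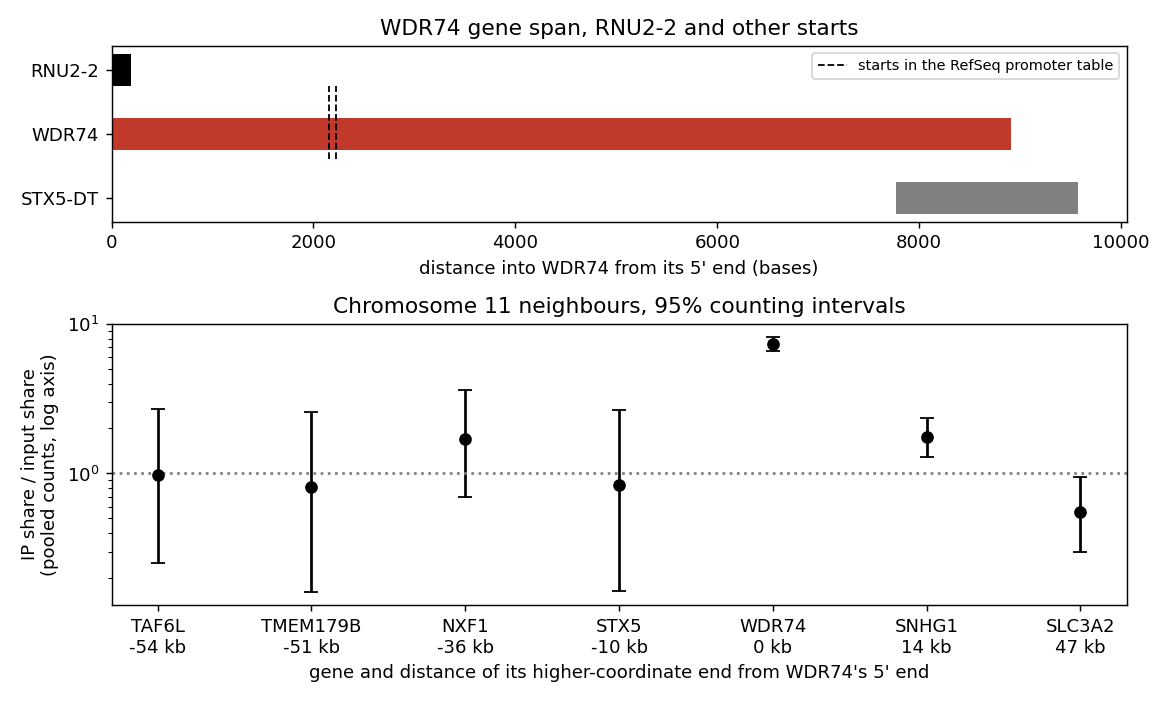
Top, the RefSeq span of WDR74 in bases from its 5′ end, with RNU2-2 at 0 to 190 bases, the inner starts at 2150 and 2219 bases (dashed) and STX5-DT at the other end. Bottom, ratio of IP to input shares from pooled counts on a log axis, with exact 95% counting intervals, for WDR74 (7.38) and 6 neighbours, whose ratios lie between 0.554 and 1.76.

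The summed U2 rows of the table had a larger share in IP than in input, as WDR74 did. Single rows varied: 9 of the 17 were tested, and 8 were called higher in IP and 0 lower (2.70% and 1.36% of all tested genes). Most of the called rows passed the filter on low counts through the IP libraries alone. Passing the filter thus largely set the call, and nothing is read from the number called. The ninth row had 3 and 1 counts in IP against 36 and 0 in input. Summed over 17 rows, 12 named U2 and 5 named RNU2, there were 187 and 41 counts in IP against 121 and 63 in input. Their shares were 0.337% and 0.135% in IP, against 0.0382% and 0.0121% in input, a pooled ratio of 12.1 (9.90 to 14.7). That interval covers counting error only, and the ratio of the mean CPM values was 9.38. No difference from the WDR74 ratio is read from it. Between replicates the summed U2 share was 2.50 times as high in SF3B6 IP 1 as in SF3B6 IP 2 and 3.15 times as high in input 1 as in input 2, where WDR74 differed 1.38-fold and 1.19-fold. RNU2-1, the named gene of the chromosome 17 array, had 41 and 1 counts in IP against 41 and 22 in input, or 283.3 and 10.45 FPKM in IP against 101.2 and 45.23 FPKM in input. It stood above WDR74 per length in SF3B6 IP 1 and in both inputs, and below it in SF3B6 IP 2. How reads were shared among near-identical U2 copies, RNU2-2 included, is not stated in any source used here.

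The genes whose profile over the 4 libraries was most like that of WDR74 were mostly small RNAs. The measure was the Euclidean distance between log2 CPM values centred on each gene, among 1712 genes with at least 100 counts in all. The nearest was RNA5SP202, a 5S rRNA pseudogene, at a distance of 0.56. It had 138 and 82 counts in IP against 135 and 133 in input. RNA5S9, a 5S rRNA gene, followed at 0.60, and MIR3648-1, a microRNA gene located in ribosomal DNA, at 0.65. RN7SL5P, a 7SL pseudogene, stood at 0.76 and MIR3648-2 at 0.97. The protein-coding rows among the 10 were MT-ND5 (0.91) and MT-ND4 (1.25), mitochondrial subunits of complex I, and CH17-159N18.5 (0.96). The other 2 were microRNA rows without a symbol, at 0.68 and 0.84. Of the 17 U2 rows, only RNU2-1 had enough counts to be compared, and it was not among the 10. These libraries are the ones that set the IP ratio, so the likeness is largely one of that ratio, and it is a description over 4 points.

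Across 13 other settings of scaling, filter, test and libraries, the log2 fold change of WDR74 stayed positive, from 1.36 to 3.23. Scaling moved all genes with it: with the totals recovered from FPKM it was 1.43, while the median of the tested genes was -1.65. Set against the median of the same fit, WDR74 lay between 2.41 and 3.77 higher, against 3.08 with TMM.

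**Figure D5:**
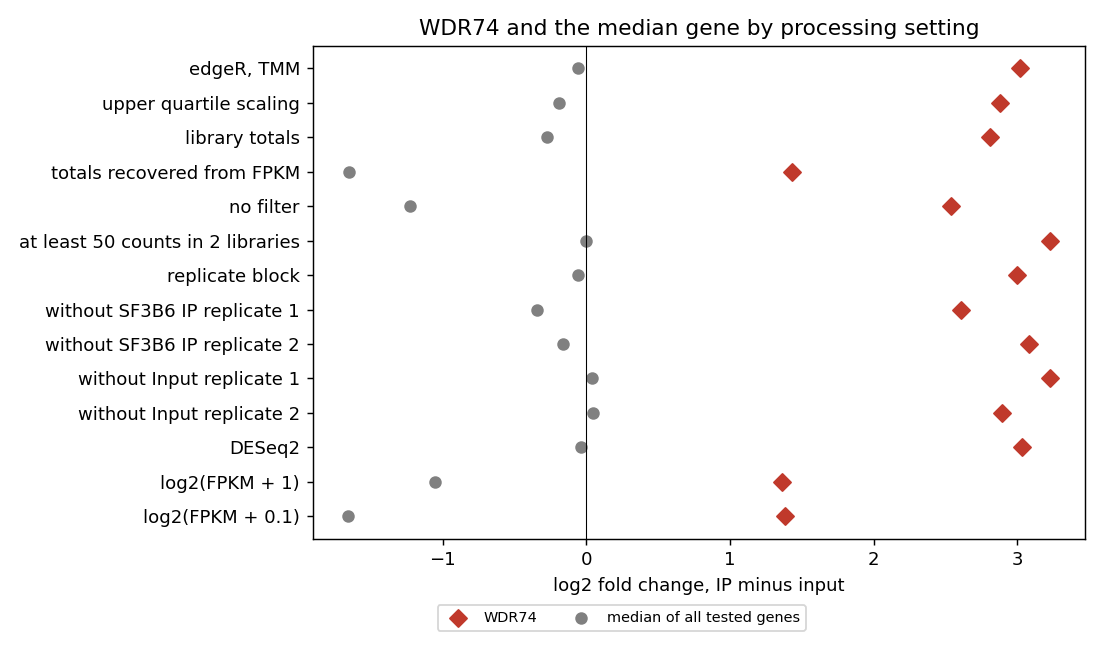
Log2 fold change, IP minus input, of WDR74 (red diamonds) and of the median tested gene (grey points) for edgeR with TMM scaling and 13 alternatives. WDR74 runs from 1.36 to 3.23, and the FPKM-based settings shift both values down.

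The label of the cells was checked on marker genes. All 8 markers known for MDA-MB-231, such as VIM and AXL, had 95 to 2408 counts over both inputs. Of 11 genes listed as low in this line or as markers of other cells, 6 have no count here, and CDH1 and EPCAM had 4 and 6 counts over both inputs. The remaining 3 went against that list: KRT8 had 424, ERBB2 223 and COL1A1 48 counts over both inputs. KRT18, a keratin counted among the 8 expected markers, had 268, so the keratins do not separate the lists.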

How the data were processed

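The deposited data are read counts per gene and FPKM values per gene, for 2 SF3B6 IP and 2 input libraries, which the series describes as biological replicates. Per the submitters' processing notes, HISAT2, HOMER and hg38 were used, with no role or version. The counts are those the authors deposited, not normalized. The FPKM values deposited by the authors divide counts by a gene length and a library total that no source used here states. The total was recovered from counts, FPKM and RefSeq lengths of small RNA genes with at least 20 counts.

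Symbols were matched to RefSeq (GRCh38.p14; 15134 of 18276 rows matched). The fit was edgeR's quasi-likelihood test (edgeR 4.0.16, R 4.3.3) on counts of all genes, with TMM, the default expression filter and Benjamini-Hochberg adjustment at 0.05; DESeq2 1.42.0 was an alternative. Adjusted p-values given without a tool are edgeR's. No p is given for WDR74. The 2 libraries of a group did not agree within sampling noise (chi-square per degree of freedom 4.33 in IP and 1.72 in input), so each library counts once. The fit was also run on simulated counts with the same spread for every gene and library, unlike these data. The outcome of that run is not given here, and nothing is read from it. WDR74, the gene lists (assembly genes, WDR-named genes, snRNA hosts), the neighbours and the rule for named genes (per list the 3 with the most counts, the 2 highest and 2 lowest, and all called) were chosen with earlier results of these data known. SNHG1, GALNT2 and BOP1 were followed through the alternatives after their values had been seen.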

Additional observations from a re-analysis of the deposited data

How the results depend on the processing

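WDR74's log2 fold change (3.02) moved in some settings by more than the spread between replicates (SD 0.24 on the log2 scale). These were the totals recovered from FPKM (1.43), no filter (2.54) and the fit without SF3B6 IP 1 (2.61). The log2(FPKM + 1) and log2(FPKM + 0.1) scales (1.36 and 1.38) were also among them. When 1 library was left out, the value ran from 2.61 to 3.23. Of 3668 tested genes, 99 were called higher and 50 lower with TMM, and 67 and 69 with upper quartile scaling. With library totals the numbers were 60 and 90, and with FPKM totals 17 and 2098, again of 3668. No filter gave 50 and 163 of 18276, and at least 50 counts in 2 libraries gave 80 and 25 of 1115. DESeq2 gave 37 and 2 of the 2032 with an adjusted p. The numbers tested differ, so the numbers called do not compare directly across filters. Without 1 library they ran from 26 to 94 and from 5 to 70. A fit without a library takes the spread of the lone library from the other group. It was not established whether IP and input libraries of the same number were paired. The correlation of same-numbered deviations was 0.000443 across genes, which at this depth cannot settle it. With a replicate block WDR74 was at 3.0, and of 3668 tested genes 68 were higher and 22 lower. Assembly genes called higher numbered 0, and 1 of 2 tested with at least 50 counts in 2 libraries (BOP1, 1.26, edgeR adjusted p = 0.0117). BOP1 was at -0.58 and SNHG1 at -0.54 with the FPKM totals. GALNT2 did not pass with a replicate block (adjusted p = 0.118), DESeq2 (0.318) or at least 50 counts (0.0887). Hosts and other WDR-named genes called higher stayed at 0 in all alternatives run. The cause of these shifts was not tested. With 30431 to 55492 IP counts, most single genes other than WDR74 are limited by depth.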
